A study of Caenorhabditis elegans with 2 samples.

Results

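AKIR-1::GFP chromatin immunoprecipitation of young adult Caenorhabditis elegans gave 952 nuclear peaks that were strong in both replicates and yet lay outside the list thresholded on the irreproducible discovery rate (IDR), a statistic that scores how well peak ranks repeat between replicates. They were selected on the deposited signal values and on overlap. A peak of the pooled list was taken when it lay off the mitochondrial genome, overlapped by at least 1 bp one of the 4000 strongest peaks of replicate 3 and one of the 4000 strongest of replicate 4, and overlapped no IDR-thresholded peak. These peaks are called below-cut peaks here. Of 29518 nuclear pooled peaks that overlapped no IDR-thresholded peak, 952 met the rule, which is 3.23%. The pooled list held 30000 peaks, of which 29983 were nuclear. The IDR-thresholded list held 400 peaks, of which 384 were nuclear, and all 400 were identical to the pooled peaks of ranks 1 to 400. A further 81 nuclear pooled peaks overlapped an IDR-thresholded peak and were left out. The remaining 28566 nuclear pooled peaks are called the other pooled peaks.

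The series has 1 group of 2 biological replicates, numbered 3 and 4. Both came from strain IG1654, which carries the insertion frSi12 on chromosome II, a construct (pNP157) in which the akir-1 promoter drives AKIR-1 with a C-terminal GFP-FLAG tag. Animals were of both sexes, synchronised by starving L1 larvae after bleaching, and collected as young adults at 70 hours. Chromatin of whole animals was precipitated with an antibody against GFP, so a peak cannot be assigned to a tissue, and nothing in the design varies between the replicates. The labels also describe a CRISPR insertion at akir-1 and give akir-1 as the antibody, and whether the native gene was intact is not stated. The lists hold peak positions and scores and no read counts, so the depth behind each peak is unknown.

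Akirins are small nuclear proteins without a known DNA-binding domain that link transcription factors to chromatin remodelling complexes. In worms, AKIR-1 has a role in switching on antimicrobial peptide genes when the epidermis is infected by a fungus. Transfer RNA genes, by contrast with protein-coding genes, are transcribed by RNA polymerase III from promoter elements inside the gene, the A box and the B box.

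The DNA under the below-cut peaks is shown first for 7 of them, one or 2 for each kind of place the results turn on. Each line gives 151 bases centred on the pooled summit, from the RefSeq sequence of assembly WBcel235 (ce11), read 5′ to 3′. Windows at gene starts are on the strand of the named gene, and those away from any start are on the plus strand of the genome. In the windows of the tRNA genes, capitals mark the B box (GTTCGANNC), and in all others they mark the 11 bases at the summit. The first of them is at F22B7.t3, a phenylalanine tRNA gene with its summit 28 bp past the gene start, at chrIII:8653008-8653158 on the plus strand. Another tRNA gene, C42D8.t1, had its summit at 59 bp, at chrX:5085561-5085711 on the minus strand. A snoRNA gene, Y71D11A.7, had its summit 52 bp upstream, at chrIII:1122378-1122528 on the plus strand. The microRNA gene cel-mir-90 had its summit 212 bp upstream, at chrIII:8874221-8874371 on the minus strand. The protein-coding gene ecps-1 had its summit 228 bp upstream, at chrIII:10460704-10460854 on the minus strand. For summits away from any start, an example in a coding exon lies in pod-2, at chrII:1151380-1151530 on the plus strand, and an intronic one lies in C03H5.3, at chrII:387279-387429 on the plus strand.
F22B7.t3: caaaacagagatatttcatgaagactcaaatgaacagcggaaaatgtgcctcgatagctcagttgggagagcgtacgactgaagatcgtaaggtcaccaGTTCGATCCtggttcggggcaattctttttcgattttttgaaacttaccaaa
C42D8.t1: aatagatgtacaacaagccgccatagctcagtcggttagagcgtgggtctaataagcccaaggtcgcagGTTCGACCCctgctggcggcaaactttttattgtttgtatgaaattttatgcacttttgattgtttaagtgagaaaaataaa
Y71D11A.7: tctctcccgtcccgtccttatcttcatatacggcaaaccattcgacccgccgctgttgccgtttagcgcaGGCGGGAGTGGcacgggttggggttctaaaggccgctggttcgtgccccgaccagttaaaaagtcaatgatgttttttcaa
cel-mir-90: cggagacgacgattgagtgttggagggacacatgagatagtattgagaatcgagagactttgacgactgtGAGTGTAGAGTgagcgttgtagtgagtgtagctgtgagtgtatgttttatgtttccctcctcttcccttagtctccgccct
ecps-1: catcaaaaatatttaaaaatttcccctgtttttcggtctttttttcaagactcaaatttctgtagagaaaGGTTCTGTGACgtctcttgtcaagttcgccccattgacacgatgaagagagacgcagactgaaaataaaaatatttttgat
pod-2: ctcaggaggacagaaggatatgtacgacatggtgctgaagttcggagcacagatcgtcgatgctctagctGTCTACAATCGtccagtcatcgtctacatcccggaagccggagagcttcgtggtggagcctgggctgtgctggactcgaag
C03H5.3: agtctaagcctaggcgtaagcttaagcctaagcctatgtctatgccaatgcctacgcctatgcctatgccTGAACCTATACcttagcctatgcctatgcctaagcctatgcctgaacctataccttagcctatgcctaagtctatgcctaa

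The values that chose the below-cut peaks are given as a description. The weakest admitted peak of replicate 3, at rank 4000, had a signal of 36.9814, and the next had 36.9792. For replicate 4 the same limits were 35.4581 and 35.4565. In the pooled list the weakest IDR-thresholded peak had a signal of 107.906, and the strongest below-cut peak, at rank 401, had 107.75. Neither limit falls at a gap in the values. Pooled signal of the below-cut peaks ran from 33.6 to 107.75 with a median of 82.4, and pooled rank from 401 to 29998 with a median of 1209.5. In replicate 3 their ranks ran from 145 to 3979 with a median of 1755, and in replicate 4 from 159 to 3987 with a median of 1714. The deposited q-values, 0.0512 to 0.802 with a median of 0.213, lay mostly above those of the IDR-thresholded peaks, whose median was 0.0264 and whose highest was 0.0530. The 384 nuclear IDR-thresholded peaks had ranks from 10 to 14738 in replicate 3, with a median of 230.5. In replicate 4, 381 of them overlapped a peak, at ranks from 18 to 15283 with a median of 232.

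Few below-cut peaks were near the top of both replicates. The 400 strongest peaks of replicate 3 overlapped 46 below-cut peaks and those of replicate 4 overlapped 38, but no below-cut peak was in both sets. Within the 1000 strongest, the counts were 258, 264 and 65 in both. Within the 2000 strongest they were 537, 546 and 305 in both. A peak in the promoter of rpi-2 (IV:1711041-1711420) was at rank 200 in replicate 3, with a signal of 73.1, and at rank 2212 in replicate 4, with a signal of 40.3. At the tRNA gene F22B7.t3 the order was the other way, with rank 2170 and a signal of 42.02 in replicate 3 against rank 212 and 68.5 in replicate 4. The signal scale is not stated and differs between lists, so only ranks are compared here. Nearest to the limit on the inside were 2 peaks at fbp-1 (rank 3987 in replicate 4), which share their replicate peaks, and one at W02B12.12 (rank 3979 in replicate 3). Just outside it were peaks at Y47D3B.12 (rank 4003 in replicate 3), C56C10.15 (rank 4005 in replicate 4) and cebp-1 (rank 4007 in replicate 3).

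**Figure D1:**
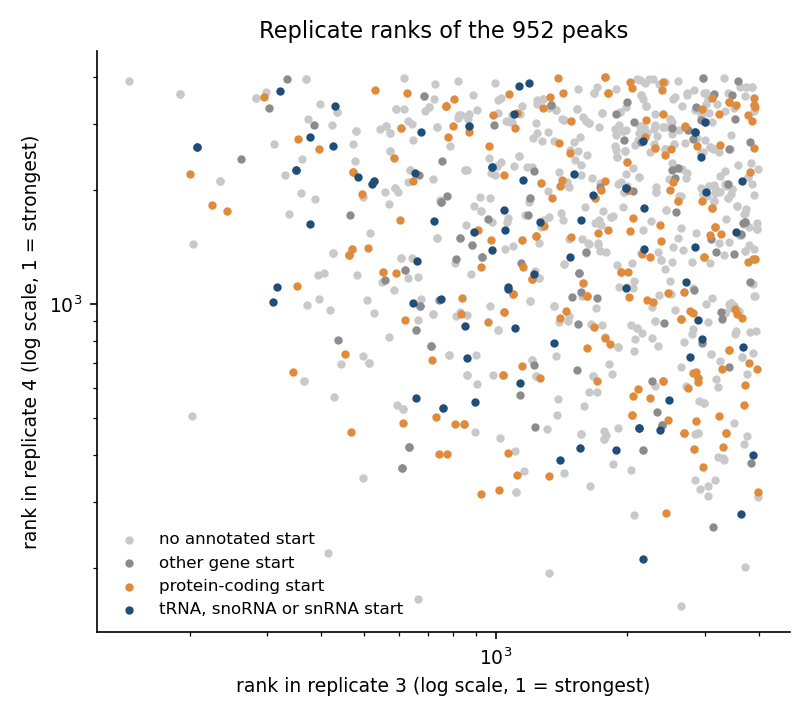
Rank of each of the 952 below-cut peaks in replicate 3 (horizontal, log scale) and replicate 4 (vertical, log scale), coloured by the type of gene start at the summit. Ranks were limited to 4000 by the rule, and the corner where both ranks are under 400 is empty.

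Not every below-cut peak is a separate replicate signal. All 952 were 380 bp wide, and they overlapped 786 distinct strong peaks of replicate 3 and 785 of replicate 4. A total of 177 shared a replicate peak with a stronger pooled peak, at pooled ranks from 773 to 29998 with a median of 10839. The 775 others had a median rank of 1014. The promoter share was 35.03% among the 177 and 40.3% among the 775. Of the 952 summits, 18, or 1.89%, lay within 1000 bp of an IDR-thresholded summit, against 152, or 0.532%, of the other pooled peaks. The median distance to the nearest was 65328.5 bp, against 89194 bp for the other pooled peaks.

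Below-cut peaks lay at promoters less often than IDR-thresholded peaks and inside genes more often. A promoter here is the stretch around a transcript start that begins 500 bp before it and ends 100 bp after it. A summit outside promoters was classed as 5′ UTR, else coding exon, else 3′ UTR, else an exon of another kind, else intron, and if none held it as intergenic. Promoters held 374 of 952 below-cut summits, 39.3% (36.2 to 42.4, a Wilson interval at 95% as are the others), against 264 of 384 IDR-thresholded summits, 68.8% (63.9 to 73.2). The difference was -29.5 percentage points (Fisher's exact test, two-sided, adjusted p = 8.48e-22 by Benjamini-Hochberg over 7 classes). Over all nuclear pooled peaks the promoter share was 27%. Coding exons held 209 below-cut summits, 21.95% (19.4 to 24.7), against 21 IDR-thresholded summits, 5.47% (3.60 to 8.22), with an adjusted p of 2.73e-14. Introns held 165, or 17.3%, against 37, or 9.64% (Fisher's exact test, adjusted p = 0.000643). For 3′ UTRs the counts were 28 against 2 (Fisher's exact test, adjusted p = 0.0116), and for other exons 16 against 1 (adjusted p = 0.0460). The 5′ UTR counts of 10 against 0 did not differ past the threshold (adjusted p = 0.0834, Fisher's exact test). Intergenic summits made up 15.8% and 15.4%, with intervals of 13.6 to 18.2 and 12.1 to 19.3 (Fisher's exact test, adjusted p = 0.934). Peaks are the units of these Fisher tests, so the p-values describe the lists and not the spread between cultures.

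**Figure D2:**
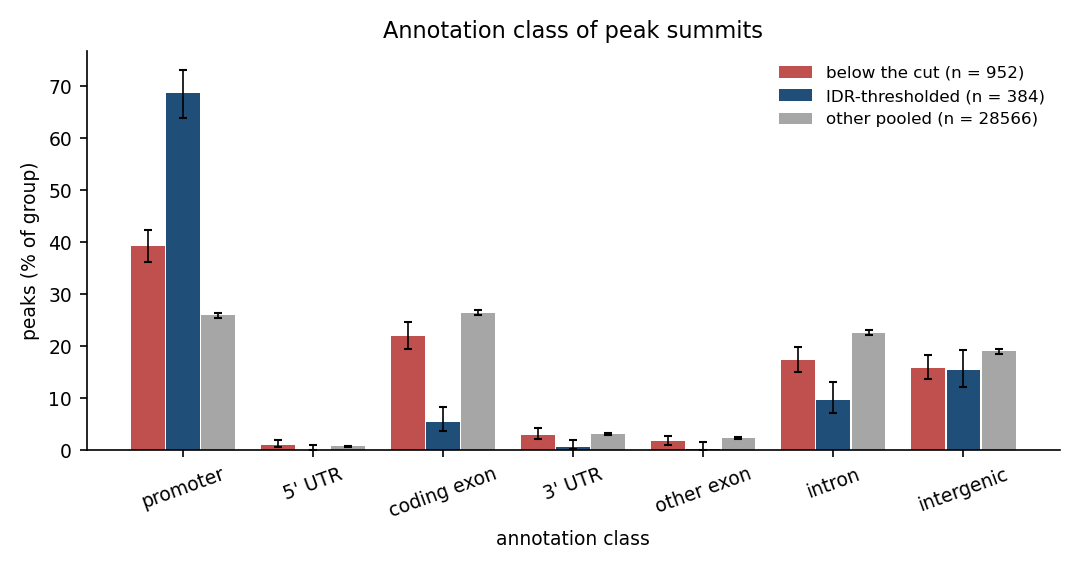
Share of peak summits in each annotation class (percent of group) for below-cut, IDR-thresholded and other pooled peaks, with 95% Wilson intervals. The below-cut promoter share of 39.3% lies between 68.8% in the IDR-thresholded list and 25.9% in the other pooled peaks, and its coding-exon share of 21.95% lies between 5.47% and 26.5%.

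The strongest below-cut promoter peak was that of kin-14, which encodes a protein kinase, with its summit 98 bp upstream (I:7079483-7079862, pooled signal 107.75). It was at rank 452 in replicate 3 and rank 739 in replicate 4. Among the next promoters in order of pooled signal were T28F4.4 and F10E9.5, whose peak also reaches the promoter of F10E9.7, and that of rpi-2. A peak with its summit 97 bp upstream of hcp-6, a condensin subunit gene, and 167 bp upstream of let-630 had a pooled signal of 106.2 (I:5164861-5165240). One with its summit 157 bp upstream of tofu-1, a gene for piRNA biogenesis, and 188 bp upstream of ruvb-1, which encodes a RuvB-like ATPase, had 106.1 (V:9980800-9981179). In the 151-base window around that summit, 100% of the 31-base words occur more than once in the genome. The promoter of ecps-1 had 106.0, with its summit 529 bp from an IDR-thresholded summit.

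Summits in coding exons were led by C35E7.4 (I:10833425-10833804, pooled signal 107.6, rank 1652 in replicate 3 and 884 in replicate 4). The next were pod-2, the acetyl-CoA carboxylase gene, with 105.1, egl-13, a SOX-family transcription factor gene, with 105.1, and miz-1 with 103.5. The pod-2 summit lay 7519 bp past the start and the egl-13 summit 198 bp past it, so the class holds both distal and near-start positions. The 209 coding-exon peaks fell in 184 genes. Their median distance to the nearest annotated start was 815 bp, against 1021 bp for introns and 1273 bp for intergenic peaks. Introns were led by C03H5.3 with 105.9, by a peak in crh-2, which encodes a CREB-like factor, with 105.7, and by peaks in F09F7.5 and in ercc-1, a DNA repair nuclease gene. The C03H5.3 window printed above consists of near copies of a short repeated unit. As the copies are inexact, only 8.26% of its 31-base words occur more than once in the genome. The strongest 3′ UTR summits were those in ubq-1, the polyubiquitin gene, in C05D11.8, in ndk-1, the nucleoside diphosphate kinase gene, and in pdi-3, with pooled signals of 105.6, 104.6, 102.0 and 97.4. In the 5′ UTR the highest were in T28F4.4, lim-9, egl-30, the Gq alpha subunit gene, and lec-1, a galectin gene, with 99.3, 90.7, 89.6 and 81.7. Summits in other exons included one in rpl-3, a ribosomal protein gene, with 96.0, which lay 852 bp from an IDR-thresholded summit. Of 602 below-cut peaks inside a protein-coding gene, 40 were in a gene that also held an IDR-thresholded summit.

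Intergenic peaks were led by those nearest to C14F5.10, linc-128, R166.10 and hpd-1, the 4-hydroxyphenylpyruvate dioxygenase gene, with pooled signals of 107.3, 107.2, 106.6 and 106.0. Their summits lay 594, 1001, 654 and 1195 bp upstream of those starts, beyond the promoter limit. The peak at C14F5.10 was 642 bp from an IDR-thresholded summit, and the one at linc-128 was 251731 bp from the nearest.

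By the type of gene whose start the summit reached, below-cut peaks had lower shares at tRNA, snoRNA and protein-coding starts than the IDR-thresholded list and a higher share at no start. A summit was given the first type that applied, in the order tRNA, snoRNA, snRNA, microRNA, protein-coding, piRNA, other gene and none. tRNA starts held 55 below-cut summits, 5.78% (4.47 to 7.44), against 51 of the IDR-thresholded list, 13.3% (10.2 to 17.04; Fisher's exact test, adjusted p = 1.75e-05). snoRNA starts held 17, 1.79% (1.12 to 2.84), against 42, 10.9% (8.19 to 14.5; Fisher's exact test, adjusted p = 1.91e-11). Protein-coding starts held 202, 21.2% (18.7 to 23.9), against 127, 33.1% (28.6 to 37.9; Fisher's exact test, adjusted p = 1.75e-05). No annotated start was in reach of 578 below-cut summits, 60.7%, against 120, 31.2% (Fisher's exact test, adjusted p = 1.21e-21). tRNA, snoRNA and snRNA starts together took 7.98% of below-cut peaks and 25.5% of IDR-thresholded peaks, beside 1.20% of the other pooled peaks. Counts for snRNA were 4 against 5 (Fisher's exact test, adjusted p = 0.163), and for other genes, 67 of them ncRNA, 69 against 34 (adjusted p = 0.345).

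MicroRNA starts took nearly equal shares of the lists. They held 13 below-cut summits, 1.37% (0.800 to 2.32), and 5 IDR-thresholded summits, 1.30% (0.557 to 3.01; Fisher's exact test, adjusted p = 1), and counts this small leave wide intervals. piRNA starts held 14 below-cut and 0 IDR-thresholded summits (Fisher's exact test, adjusted p = 0.0204). The 384 IDR-thresholded peaks allow a share of up to 0.990% by the Wilson interval, and among the other pooled peaks the piRNA share was 3.56%. Of those 14 peaks, 13 were on chromosome IV, where the piRNA genes of the worm are clustered.

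**Figure D3:**
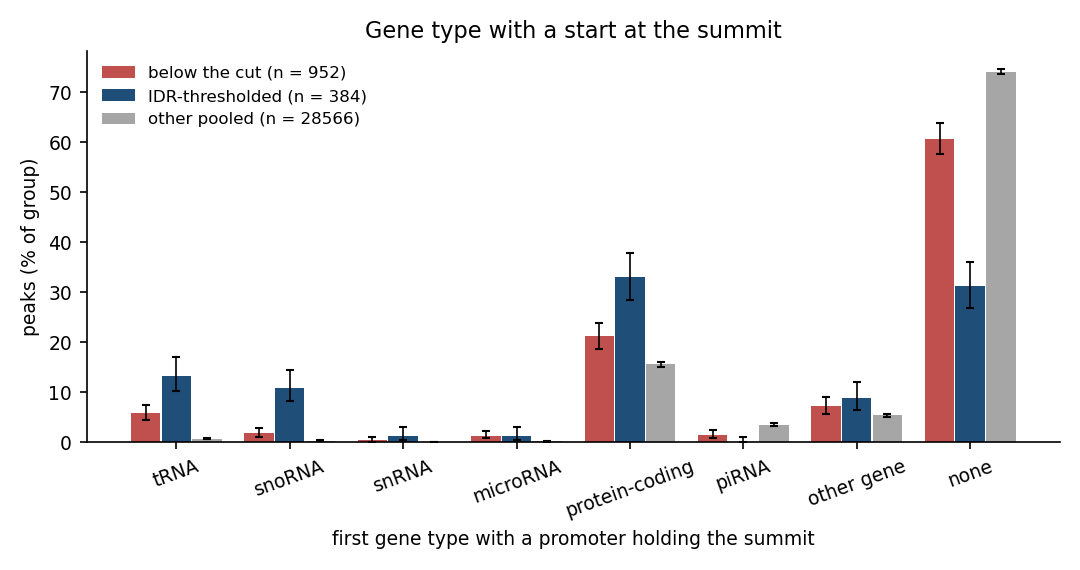
Share of peaks (percent of group) by the first gene type whose promoter holds the summit, with 95% Wilson intervals, for below-cut, IDR-thresholded and other pooled peaks. tRNA starts take 5.78%, 13.3% and 0.767%, snoRNA starts 1.79%, 10.9% and 0.343%, and no start 60.7%, 31.2% and 74.1%.

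Below-cut summits at tRNA genes sat on the gene start. Their median position was 8 bp upstream, and 49 of 55 were within 100 bp, as were 49 of 51 in the IDR-thresholded list, whose median was 8 bp downstream. The strongest were F22B7.t3, C02B4.t1 (X:12660965-12661344, pooled signal 106.4), K06A4.t1 (V:9503267-9503646, 106.4) and T03E6.t1 (V:16592158-16592537, 105.2), whose summit is also in the promoter window of the chemoreceptor gene srh-269, 306 bp upstream. In the 2 replicates these 4 peaks had ranks of 2170 and 212, of 1555 and 416, of 310 and 1015, and of 849 and 874. The bound genes covered 19 tRNA isotypes, with the largest counts for proline, 9 genes, and glutamate, 6. Some of these genes shared a summit in pairs. For proline they were C48C5.t3 with C48C5.t1, W09D6.t2 with W09D6.t1, and F23D12.t1 with F23D12.t2. For glutamate they were Y105C5B.t2 with Y105C5B.t3. The number of genes of each isotype in the genome is not given here, so the counts are not shares. Promoters of 58 of 612 nuclear tRNA genes held a below-cut summit, 9.48%, and of 59 an IDR-thresholded one, 9.64%. Of all 46890 nuclear genes, 463, or 0.987%, had a below-cut summit and 415, or 0.885%, an IDR-thresholded one. A single gene had both. The rule took only peaks that overlap no IDR-thresholded peak, which limits how many genes could have both.

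Below-cut summits at snoRNA genes lay a median of 52 bp upstream, and 10 of 17 were within 100 bp, against 38 of 42 in the IDR-thresholded list. The highest was Y74C9A.6, with its summit 3 bp past the start and a pooled signal of 105.8, at rank 858 in replicate 3 and 719 in replicate 4. The next lay at F07A11.15 inside din-1, which encodes a nuclear corepressor, at Y24D9A.9 beside rpl-7A, and at Y71D11A.7, with 102.1, 101.4 and 99.997. As summits near a small RNA gene can also be near a protein-coding start, the 101.4 peak lay 26 bp upstream of rpl-7A and 308 bp upstream of the snoRNA gene. By share of genes, 14 of 346 snoRNA genes had a below-cut summit, 4.05%, against 42, 12.1%, with an IDR-thresholded one. The strongest snRNA-type peak was at sls-2.16, a spliced leader RNA gene, with its summit 7 bp upstream and a pooled signal of 98.2.

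The 16 microRNA genes with a below-cut summit, of 261, were 6.13%, against 6 genes in the IDR-thresholded list. The highest was cel-mir-90 with a pooled signal of 103.5, at rank 612 in replicate 3 and 368 in replicate 4. cel-mir-241, of the let-7 family that times larval development, had 95.6 with its summit 337 bp upstream, and the same peak covers F56A12.8. cel-mir-55b had 95.2, and a neighbouring peak with 80.9 had its summit in the promoter windows of cel-mir-54 and cel-mir-55, 253 and 423 bp upstream. One summit (in the peak II:11537508-11537887) lay in the promoter windows of all 6 genes from cel-mir-35 to cel-mir-40, an embryonic cluster, so those 6 are 1 signal: 73.4 in the pooled list, rank 2276 in replicate 3 and rank 625 in replicate 4. cel-mir-87 had 76.4 with ranks of 262 and 2426. cel-mir-1, a microRNA of muscle, was at rank 15354 in the pooled list and at ranks 1701 and 1036 in the replicates. Median summit position for the class was 253 bp upstream, farther from the annotated start than for tRNA or snoRNA genes. The mature and precursor sequences of these microRNAs were not used here.

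On protein-coding genes, below-cut summits lay a median of 221 bp upstream, against 193 bp in the IDR-thresholded list. Starts of protein-coding genes on both strands were in reach of 17 of 203 below-cut promoter peaks, 8.37% (5.29 to 13.0), against 36 of 127, 28.3% (21.2 to 36.7; Fisher's exact test, adjusted p = 5.01e-06). Among the other pooled peaks that share was 5.79%.

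No chromosome's share differed between the lists by the test. The X held 227 below-cut peaks, 23.8% (21.2 to 26.7), and 97 IDR-thresholded peaks, 25.3% (21.2 to 29.8; Fisher's exact test, adjusted p = 0.669), while it makes up 17.7% of nuclear length. Chromosome V held 173, 18.2%, against 57, 14.8%, and 20.9% of length. Counts on I, II, III and IV were 151, 133, 126 and 142, against 54, 62, 61 and 53. Adjusted p over the 6 chromosomes ran from 0.611 to 0.669, which does not show that the shares are equal. tRNA peaks were often on X. Of the 55 below-cut tRNA peaks 25 were on X, 45.5%, against 31 of 51, 60.8%, and 276 of 612 nuclear tRNA genes, 45.1%, are there. Without tRNA peaks the X share was 22.5% (202 of 897) against 19.8% (66 of 333). The middle of 3 equal parts of each chromosome held 38.4% of below-cut and 42.4% of IDR-thresholded peaks (Fisher's exact test, adjusted p = 0.194).

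**Figure D4:**
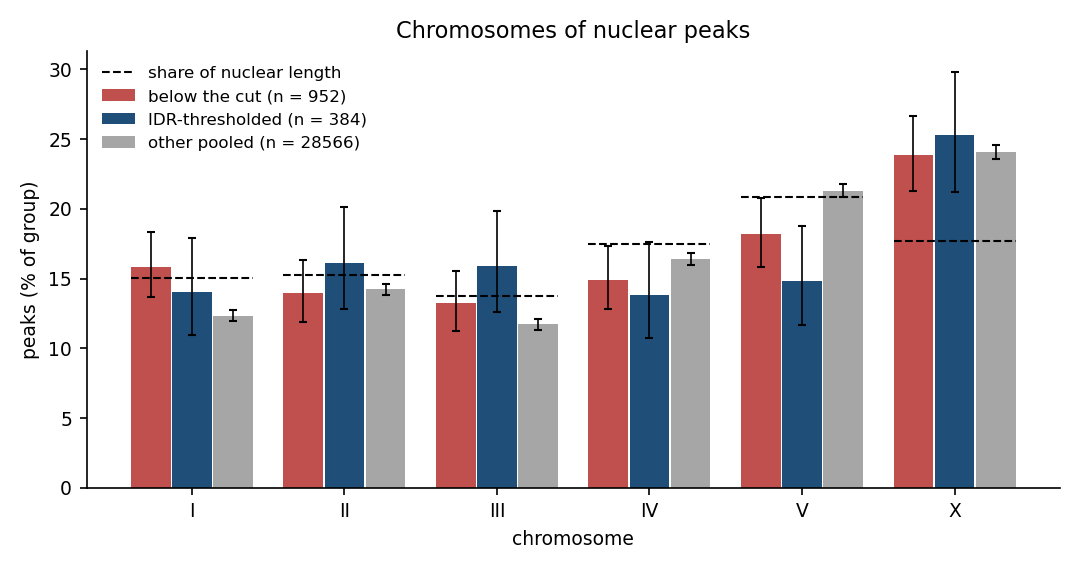
Share of nuclear peaks on each chromosome (percent of group) with 95% Wilson intervals, and the share of nuclear sequence length as a dashed line. On X, below-cut peaks stand at 23.8% and IDR-thresholded peaks at 25.3%, above the 17.7% of length, and the intervals of these 2 groups overlap on every chromosome.

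Gene families are described by counts, beside a background of 204 of 19973 protein-coding genes with a below-cut summit, 1.02%, and 184, 0.921%, with an IDR-thresholded one. A gene was counted when a summit lay in its promoter, also where the start of another gene was nearer. Several housekeeping families had fewer genes with a below-cut than with an IDR-thresholded summit. Ribosomal protein genes had 3 of 84, 3.57% (rpl-7A, rla-1 and rpl-27, at pooled ranks of 476, 1357 and 20955), against 9 in the IDR-thresholded list, 10.7%. The summit 399 bp upstream of rla-1 lay 49 bp past the start of the snoRNA gene Y37E3.22. That of rpl-27 lay 443 bp upstream. A stronger below-cut peak, at pooled rank 499, had its summit 643 bp upstream of rpl-27, in a coding exon of C53H9.2. Chaperone genes had 2 of 61, which were hsp-6, the mitochondrial HSP70, and dnj-20, against 6. The summit 348 bp upstream of hsp-6 lay 30 bp past the start of the ncRNA gene C37H5.15. Translation factors had eif-3.B against 3, the V-ATPase had 0 of 20 against 3, and histones 0 of 81 against 2. Aminoacyl-tRNA synthetases had mars-1, the methionyl-tRNA synthetase, against 1. Ubiquitin genes had ubq-1 and the splicing factors prp-8, each against 1, and the proteasome had rpt-2 against 0.

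In 3 families of transcription factors the counts were larger below the cut, though small. Nuclear hormone receptors had 5 of 274, against 1 in the IDR-thresholded list. They were nhr-48, nhr-28, nhr-3 and nhr-1, all on X, with pooled signals of 91.5, 83.8, 76.8 and 73.0, and nhr-114 on V. Basic helix-loop-helix factors had 2 of 34 against 0. Of these hlh-30, the worm TFEB, had its promoter summit 273 bp upstream with a pooled signal of 95.6, at rank 912 in replicate 3 and 1574 in replicate 4, and another below-cut peak in an intron with 99.8. The other was hlh-11 with 59.8. Basic leucine zipper factors had skn-1, the worm Nrf factor, with 81.8, and zip-2, a factor of the response to pathogens, with 81.0, against 1. The summit counted for zip-2 lay 38 bp past its start and 36 bp past that of linc-37. A stronger below-cut peak, with 99.4, had its summit 230 bp past the zip-2 start, in a coding exon. The pharyngeal FoxA gene pha-4 had 96.1 with its summit 37 bp upstream, and mep-1, a zinc-finger subunit of the MEC chromatin complex, had 100.3 as the sole bound gene of 14 in the list of NuRD, MEC and akirin partners. GATA factors and RNA polymerase subunits had 0 in both lists, and the ceh homeobox genes 0 against 1.

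Among gene classes by name, those with at least 3 bound genes were mir with 16, nhr with 5, kin with 4 of 23, and clec and srh with 3 each. The kin genes were kin-14, kin-20, a casein kinase 1 gene, kin-1, the protein kinase A catalytic subunit gene, and kin-29, a salt-inducible kinase gene, with pooled signals of 107.75, 97.5, 87.01 and 48.7. No kin gene had an IDR-thresholded promoter summit. C-type lectins had clec-169, clec-126 and clec-50 of 240, or 1.25%, and chemoreceptors 5 of 1308, or 0.382%. The background was 1.02%, and both families had 0 in the IDR-thresholded list. The summit 393 bp upstream of clec-126 lay 56 bp past the start of the tRNA gene W09G10.t3. That of the chemoreceptor gene srh-269 is the summit at the tRNA gene T03E6.t1. Detoxification enzymes had gst-1 and gst-42 of 185, or 1.08%, against 1. Cuticle collagens had col-2 of 175, and F-box genes 0 of 327 against 3.

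The lists of the epidermal immune response and of tissues are short, so a count of 0 in one of them cannot be told from the background of 1.02%. Below-cut promoter summits numbered 0 of 22 for the antimicrobial peptides of the nlp and cnc families and 0 of 21 for epidermal immune signalling, and both were also 0 in the IDR-thresholded list. The labels name no infection. Tissue lists gave pha-4 alone of 17 genes for the pharynx and act-5, the microvillar actin gene, alone of 19 for the intestine. A single gene in lists of this size cannot be told from the background either. Epidermis, body wall muscle, neurons and germline lists had 0 of 26, 28, 31 and 42. Heterochronic genes had sea-2, with 102.6, and cel-mir-241, of 18. Neither akir-1 (I:4137161-4138952) nor unc-119 (III:10902641-10908935) had a promoter summit in any of the groups of pooled peaks.

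The promoter share of pooled peaks declined with rank, and the coding-exon share grew. Promoter shares in the IDR-thresholded range were 73.8% for ranks 1 to 100, 64% up to rank 200, 70% up to 300 and 68% up to 400. They were 49% (39.4 to 58.7) for ranks 401 to 500 and 55.6% (45.7 to 65.0) for ranks 501 to 600, then 41%, 37% and 28.3% up to ranks 800, 1600 and 4000. Coding-exon shares over the same ranges went from 1.19% for ranks 1 to 100 to 8% for ranks 301 to 400, 10% for ranks 401 to 500, and 28.4% for ranks 1601 to 4000. Below-cut peaks made up 72.0% of the nuclear pooled peaks of ranks 401 to 800 that overlap no IDR-thresholded peak, 41.3% of ranks 801 to 1600 and 6.13% of ranks 1601 to 4000.

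In the rank ranges tested, which ended at rank 4000, no difference between below-cut and other pooled peaks passed the test. The promoter share was 45.1% against 50.5% for ranks 401 to 800, a difference of -5.35 points (-16.1 to 5.49 at 95%; adjusted p = 0.741 over 6 comparisons, Fisher's exact test). It was 38.2% against 36.1% for ranks 801 to 1600, 2.10 points (-4.68 to 8.94; Fisher's exact test, adjusted p = 0.826), and 32.9% against 27.8% for ranks 1601 to 4000, 5.03 points (-2.32 to 13.2; adjusted p = 0.650). Small RNA starts took 12.6% in both groups, then 8.26% against 5.81%, then 2.05% against 2.91% (Fisher's exact test, adjusted p = 1, 0.650 and 0.956). These intervals leave room for differences of several points either way. Ranks 4001 to 30000 were not tested. There 193 below-cut peaks had a promoter share of 37.3% (30.8 to 44.3), against 25.5% (24.96 to 26.02) of the other pooled peaks. Small RNA starts took 5.18% against 0.924%. Of these 193, 47 shared no replicate peak with a stronger pooled peak. Pooled over all ranks, the below-cut promoter share exceeded that of the other pooled peaks by 13.3 points (39.3% against 25.9%, Fisher's exact test, adjusted p = 8.23e-18). The 2 groups differ in rank, and how much of the 13.3 points goes with rank was not tested.

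**Figure D5:**
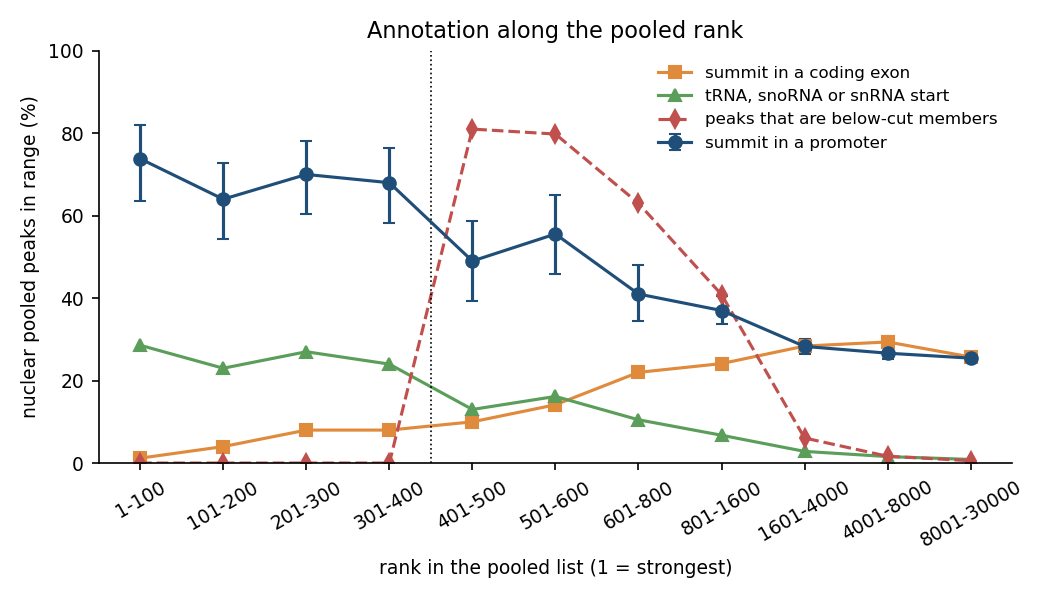
Share of nuclear pooled peaks (percent) with a promoter summit (95% Wilson intervals), a coding-exon summit, a tRNA, snoRNA or snRNA start, or membership of the below-cut set, by range of pooled rank, with a dotted line at the end of the IDR-thresholded list. The promoter share is 68% just left of the line and 49% just right of it, and it declines to 25.4% in the weakest range.

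Base composition followed the same order. The median GC share of the 151-base windows was 43.0% for below-cut peaks, 48.3% for IDR-thresholded peaks and 37.1% for other pooled peaks. Windows in which every 31-base word was unique in the genome made up 89.5%, 77.3% and 93.0%. For tRNA peaks, where gene copies share sequence, this was 23.6% of below-cut and 7.84% of IDR-thresholded windows. Reads from such windows can map to more than one place, and how the authors placed them is not given in the sources used here.

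Motifs were searched by their letters on both strands in the same windows. The B box GTTCGANNC was in 40 below-cut windows, 4.20%, against 9.38% of IDR-thresholded and 1.33% of other pooled windows. The tRNA windows shown above were picked because they hold it. The B box was in 0.841% of start windows, which are the 151 bases up to each annotated start of any gene type. Start windows end at the start, while peak windows extend to either side of the summit. They leave out the inside of tRNA genes, where the B box lies, so they are not a like background for it. Within tRNA peaks it was in 21 of 55 below-cut and 23 of 51 IDR-thresholded windows. The GA repeat GAGAGAGA was in 4.62%, 7.55% and 1.66% of the 3 groups, beside 1.79% of start windows, and CCGCCC in 4.94%, 8.59% and 2.47%, beside 3.46%. GCGCGAAA was in 0.420%, 1.30% and 0.466%, beside 0.510%. The GATA-type word TGATAA went the other way, with 12.3%, 7.03% and 15.7%, beside 16.6% of start windows. These words differ in GC content as the groups do, and the part of base composition in the counts was not tested.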

How the data were processed

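The authors deposited 4 peak lists on ce11 in narrowPeak format, per the file headers and the texts deposited with them: 1 for each replicate, 1 for the pooled replicates and 1 thresholded on IDR. The signal value of each peak is the authors' deposited value on an unstated scale, and it was used to rank peaks within a list only. Each peak call also drew on 1 further file common to them, whose content is not stated, per the deposited texts. The −log10 q-value and the summit offset are also as deposited by the authors. Which aligner, peak caller and IDR threshold were used is not given in the sources used here. Depth is unknown, and intervals, at 95%, cover counting error over peaks only.

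Peaks were joined to Ensembl release 115 genes. Of 2811 genes without a symbol, 2773 were named by RefSeq through their identifiers. Shares were compared by two-sided Fisher's exact tests with Benjamini-Hochberg adjustment and a threshold of 0.05. The 37 gene lists were described by counts. The member count equalled that of bedtools, and the tests were tried on simulated data. The members and lists were chosen with earlier results of these data known. Named genes are those at the 20 strongest members, the 4 strongest per annotation class and start type, up to 4 per list, gene classes with at least 3 bound genes, those nearest to the limits of the rule, and akir-1 and unc-119. Tests ran in scipy 1.17.1 (Python 3.11.15), tables in pandas 2.3.3 with numpy 2.4.6, and plots in matplotlib 3.10.9. Alternatives covered the number of strongest peaks, the overlap, each replicate alone, other reference peaks and other promoters. References to other pooled peaks, comparisons within rank ranges, and fits without members that share a replicate peak or without small RNA genes were chosen after seeing the data.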

Additional observations from a re-analysis of the deposited data

How the results depend on the processing

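The promoter, small RNA, protein-coding, no-start and X shares, as differences from the IDR-thresholded list, kept their direction and their side of the threshold under each alternative run for them, which were the number of strongest peaks, the overlap, either replicate alone, the stronger or weaker part of the IDR-thresholded list and, except for X, other promoters (starts of protein-coding genes alone were not run for the small RNA share). With either replicate left out of the rule, the promoter difference ran from -39.6 to -37.7 points, the small RNA difference from -21.7 to -21.6, the protein-coding difference from -16.0 to -14.9, the no-start difference from 37.7 to 39.6 and the X difference from -0.843 to -0.589. The number of below-cut peaks moved from 952 to 305 with the 2000 strongest peaks of each replicate, to 2445 with the 8000 strongest, to 549 with summits at most 100 bp apart, and to between 3952 and 3989 with 1 replicate left out of the rule, and was 775 without peaks that share a replicate peak. Against all other pooled peaks, a reference chosen after seeing the data, directions turned: promoter 13.3 points, small RNA 6.78, protein-coding 5.71 and no start -13.3. Against other pooled peaks of ranks 401 to 4000, with the same origin, they were 9.68, 4.93, 2.59 (Fisher's exact test, adjusted p = 0.127), -9.68 and, for X, 1.06. In both, the reference is a weaker set of peaks, and the part of strength in the turn was not tested apart from the comparisons within rank ranges. No paired analysis was possible because the series has 1 group. Depth is unknown, and with 2 replicates no spread between cultures could be estimated for any share.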
